A study of Homo sapiens with 18 samples.

Results

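The comparison described here set pluripotent H1 cells carrying an shRNA against KBTBD8 beside pluripotent H1 cells that had never met a virus. H1 is an established human embryonic stem cell line. Of the 18 arrays of the series, 5 form the comparison: replicates 1 and 3 of hESC_H1_shKBTBD8 and replicates 1, 2 and 3 of hESC_H1 without shRNA. The 3 pluripotent arrays with the control shRNA served as a second reference, so that genes distinct from untransduced cells could be told from genes distinct only from the control shRNA. Every pluripotent culture was feeder-free, on Matrigel with mTeSR1, and lentivirus delivered both shRNAs. The remaining arrays held embryoid bodies, which are aggregates left to differentiate for 6 days, under the same 3 treatments. RNA was measured on Affymetrix Human Gene 1.0 ST arrays, and values are log2 intensities, so a difference of 1 is a 2-fold change. The samples of a group are called independent in the series text, with no word on separate cultures. The sample titles name each shRNA only as KBTBD8 or control, not the hairpin or how many were used. The p-values therefore measure spread between arrays, which may be technical. An effect of the KBTBD8 shRNA itself cannot be told apart from an effect of losing KBTBD8.

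Replicate 2 of the KBTBD8 shRNA was left out because it lay with the embryoid bodies. SIX3, a forebrain regulator, lay at the 96.1 percentile of that array and between the 34.9 and 43.6 percentile on the 2 arrays kept. CRIPTO, a NODAL co-receptor of pluripotent cells, lay at its 58.6 percentile, against 96.9 on both arrays kept. The array labelled replicate 2 of the KBTBD8 shRNA in embryoid bodies lay with the pluripotent cells and was left out of the main fit as well. On that array PAX6, a neural regulator, lay at the 23.0 percentile and CRIPTO at the 96.4. The other 2 of its group gave 89.4 and 89.6 for PAX6 and 63.2 and 65.5 for CRIPTO. INHBE read 9.71 on that array and 5.97 and 5.40 on the other 2. Leaving it out therefore shapes every INHBE difference given for embryoid bodies.

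KBTBD8 is a substrate adaptor of the ubiquitin ligase built on cullin CUL3, and picks the proteins that the ligase modifies. It is known for a part in the specification of neural crest through factors that govern ribosome production. DDIT3, INHBE and VEGFA belong to a different system. They are targets of the integrated stress response, in which kinases that sense missing amino acids, unfolded proteins, haem shortage or double-stranded RNA slow translation, and the transcription factor ATF4 is made more efficiently and switches on genes for amino acid supply.

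KBTBD8 read 6.5, 6.43 and 6.03 in untransduced cells, 6.39, 7.09 and 7.03 with the control shRNA, and 5.13 and 4.96 with its own shRNA. The knockdown arrays lay below every array of both references. KBTBD8 fell by 1.27 ± 0.26 (SE) against untransduced cells, a 2.42-fold drop (limma, adjusted p 0.0019), and by 1.79 ± 0.26 against the control shRNA (adjusted p 2.8e-04). An exact two-sided permutation test gave p 0.2 for each, the smallest that 2 arrays against 3 allow. The knockdown arrays placed the gene at the 32.8 and 34.4 percentile of the array, below the 40th that served as a filter, so the remaining level was near the dim end of the measurement. Of 35 tested genes on a list of CUL3 and its adaptors, 4 rose and 7 fell against untransduced cells, a share near the 28.3% called over all genes, and 3 fell against both references: KBTBD8 itself, the RING subunit RBX1 (−0.80 and −0.40) and KLHL13 (−0.47 and −0.51). The count of 3, where 2.47% of all genes were distinct and lower, was 1 without replicate 2 or 3 of the control shRNA. RBX1 lost its call against the control shRNA without replicate 1 or 3 of the knockdown (adjusted p 0.06 and 0.15) and without replicate 2 or 3 of the control shRNA (0.061 and 0.06). KLHL13 lost both calls without replicate 1 of the knockdown (adjusted p 0.42 and 0.40) and one or the other without several reference arrays. CUL3 itself differed by −0.15 (adjusted p 0.19).

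The cells kept their pluripotent markers. LIN28A, DPPA4, SOX2, DNMT3B and PODXL lay at or above the 94.4 percentile on all 8 pluripotent arrays. LIN28B, ZFP42, SALL4, CRIPTO and L1TD1 lay at or above the 85.5 percentile on the same arrays. PAX6 stayed at or below the 30.9 percentile there. Of 27 pluripotency regulators tested, 5 rose and 2 fell against untransduced cells, a share near the 28.3% called over all genes. The largest changes were falls of OTX2 (1.81) and rises of DPPA2 (1.01) and KLF4 (0.80). None of the rises was distinct from the control shRNA as well. Against the control shRNA 2 of the 27 rose and 4 fell, where 8.43% and 5.58% of all genes did. DNMT3B differed by −0.58 from the control shRNA and by −0.14 from untransduced cells. The 5 rises against untransduced cells became fewer without either knockdown array. LIN28B was the other that fell, by 0.31 (adjusted p 0.026), a call lost without replicate 1 or 3 of the knockdown (0.13 and 0.09).

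Many genes differed between untransduced cells and cells with either shRNA. Against untransduced cells, 4024 of 14209 genes tested passed an adjusted p of 0.05 (28.3%), of which 2442 rose (17.2%) and 1582 fell (11.1%). Of these, 182 changed by 2-fold or more. Without regard to a test, 7085 genes (49.9%) had knockdown arrays that did not overlap the untransduced ones. The control shRNA differed from untransduced cells in 4132 genes (29.1%), 2412 higher (17%) and 1720 lower (12.1%). Against the control shRNA the KBTBD8 shRNA called 1991 genes (14%), 1198 higher (8.43%) and 793 lower (5.58%). These comparisons share arrays, so their counts are not independent. The untransduced arrays also had lower medians over all probe sets (5.88 to 5.95) than the pluripotent arrays with a lentivirus (5.97 to 6.12, the left-out array included). Quantile normalization removes that gap. With it, the calls of KBTBD8 shRNA against untransduced cells were 2065 higher and 1979 lower, 51.1% higher in place of 60.7%, so the excess of increases depends on the scaling. The control shRNA comparison turned from 58.4% higher calls to 48.1%, with 2048 higher and 2214 lower. The median gene differed by 0.05 between KBTBD8 shRNA and untransduced cells and by −0.01 between the 2 shRNAs.

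A gene was taken as distinct when it passed the threshold against both references in the same direction. This held for 1079 genes (7.59% of those tested), 728 higher (5.12%) and 351 lower (2.47%), which is 26.8% of the genes called against untransduced cells. A further 2915 genes were called against untransduced cells and not against the control shRNA, and 1905 of them were also called, in the same direction, for the control shRNA against untransduced cells. Another 30 were called against both references in opposite directions, and 882 only against the control shRNA. Only 44 distinct genes differed by 2-fold or more from both references, 40 higher and 4 lower. The count rests on both knockdown arrays: it was 640 without replicate 1 of the KBTBD8 shRNA and 399 without replicate 3, and 299 when both arrays numbered 2 were kept.

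**Figure D1:**
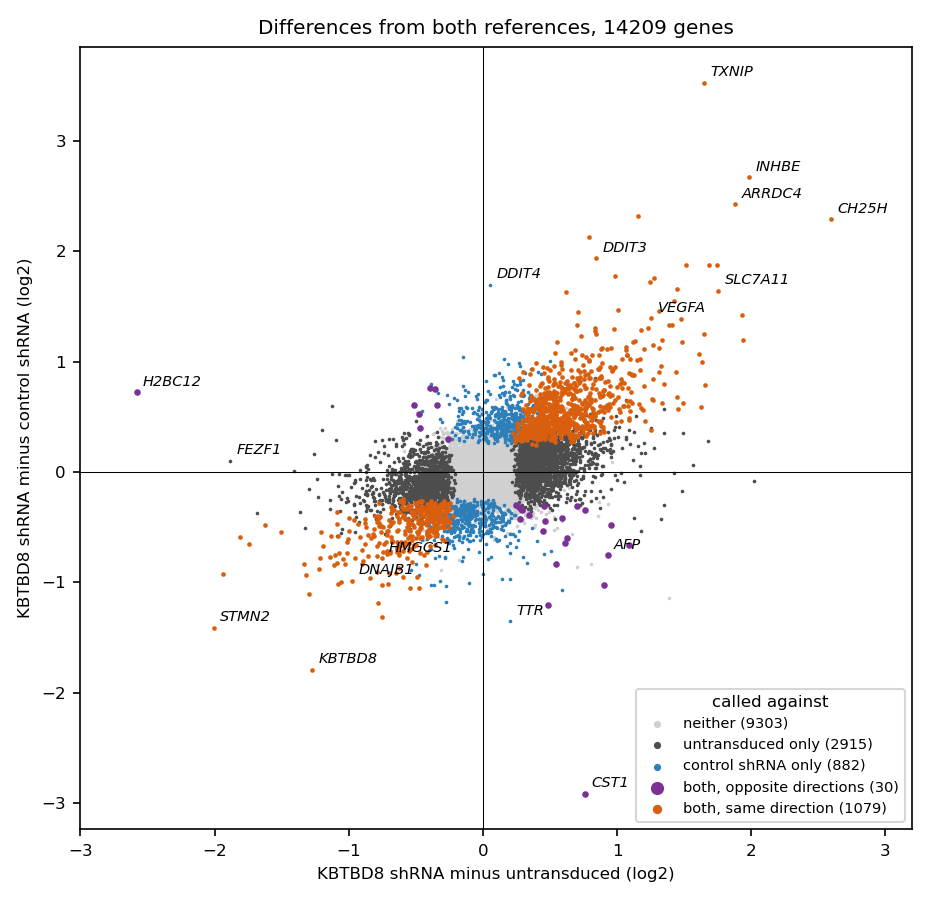
Each point is 1 of 14209 genes, placed by its log2 difference between KBTBD8 shRNA and untransduced cells (horizontal) and between KBTBD8 shRNA and control shRNA (vertical); both axes use the same KBTBD8 shRNA arrays, so points lean along the diagonal by construction. The 1079 genes called against both in the same direction sit at upper right and lower left, with KBTBD8 among the lowest, while DDIT4 and TTR sit on the vertical axis and FEZF1 on the horizontal.

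Among distinct genes that rose, CH25H stood first. It makes 25-hydroxycholesterol, and read 5.54, 6.10 and 5.50 untransduced, 6.13, 6.18 and 5.75 with the control shRNA, and 8.27 and 8.36 under knockdown. Its increase was 2.60 ± 0.17 against untransduced cells (adjusted p 1.6e-07) and 2.29 against the control shRNA. No other gene rose as far against untransduced cells without overlap between the groups.

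INHBE, the inhibin beta E subunit of the transforming growth factor family, read 7.30, 8.33 and 8.03 untransduced, 6.89, 7.44 and 7.26 with the control shRNA and 9.83 and 9.91 under knockdown. It rose by 1.99 ± 0.26 (adjusted p 8.5e-05) and by 2.67 against the control shRNA. VEGFA, the angiogenic growth factor, read 7.32, 7.79 and 7.70, then 7.42, 7.34 and 7.64, then 8.84 and 8.87. It rose by 1.26 ± 0.13 (adjusted p 1.1e-05) and by 1.39, and the control shRNA differed from untransduced cells by −0.14 (adjusted p 0.4). The VEGFA groups were tight and well apart.

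DDIT3 encodes CHOP, a stress-induced transcription factor. It read 6.53, 7.80 and 7.95 untransduced, 6.26, 6.30 and 6.44 with the control shRNA and 8.25 and 8.29 under knockdown. Its difference was larger against the control shRNA (1.94 ± 0.28, adjusted p 3.3e-04); against untransduced cells it was 0.84 ± 0.28 (adjusted p 0.036). Replicate 1 of the untransduced cells lay far below the other 2. The call against untransduced cells was lost without either knockdown array (adjusted p 0.12 without replicate 1, 0.15 without replicate 3) and when the 8 pluripotent arrays were fitted alone (0.089). DDIT3 was 1.09 lower with the control shRNA than in untransduced cells (limma, adjusted p 0.0048).

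The rest of the 10 largest distinct increases mix metabolism and secreted signals. ARRDC4 and TXNIP are arrestin-domain proteins that hold back glucose uptake. ARRDC4 read 6.05, 6.06 and 6.05, then 5.36, 5.50 and 5.68, then 7.89 and 7.99, a rise of 1.88 ± 0.11 (adjusted p 1.5e-07). TXNIP read 8.77, 9.62 and 9.73, then 7.44, 7.61 and 7.42, then 11.03 and 11.02. It rose by 1.65 ± 0.19 against untransduced cells and by 3.53 against the control shRNA. TXNIP was 1.88 lower with the control shRNA than in untransduced cells. SLC7A11, the cystine transporter, read 7.96, 8.04 and 8.51, then 8.16, 8.36 and 8.33, then 9.99 and 9.86, and rose by 1.76 ± 0.13.

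Secreted factors and receptors made up most of the others. The chemokine CXCL1 rose by 1.74 ± 0.14, TAC1, the precursor of substance P, by 1.68 ± 0.18, and IL20RB, a subunit of interleukin 20 receptors, by 1.51 ± 0.13. FGF21, a stress-induced hormone, rose by 1.45 ± 0.15, and ALDH1L2, a mitochondrial folate enzyme, by 1.93 ± 0.15. Against the control shRNA these 5 rose by 1.88, 1.88, 1.88, 1.66 and 1.43. Every knockdown array lay above all 6 reference arrays for each of the 10 genes. The ubiquitin ligase NEDD4 (1.94 and 1.19) and the reductase DHRS2 (1.65 and 1.25) were among the 12 largest increases against untransduced cells and also passed against the control shRNA.

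Distinct decreases were smaller. STMN2, a neuronal regulator of microtubules, read 6.80, 6.16 and 6.53 untransduced, 5.77, 5.78 and 6.16 with the control shRNA and 4.36 and 4.63 under knockdown. It fell by 2.0 ± 0.16 (adjusted p 1.4e-06) and by 1.41. It was followed by KBTBD8 itself, CCDC167 (−1.29 and −1.11), the metallothionein MT2A (−1.08 and −1.01), the transporter SLC61A1 (−1.05 and −1.0), the heat shock cochaperone DNAJB1 (−0.98 and −0.98), the respiratory subunit COX7B (−1.31 and −0.93), the retinoic acid carrier CRABP2 (−1.94 and −0.93), SLFN13 (−1.22 and −0.88) and PDE4DIP (−0.84 and −0.96). MT2A varied among untransduced arrays (10.47, 11.11 and 11.68), and its call against the control shRNA was lost without either knockdown array (adjusted p 0.086 and 0.076). With the mean of its probe sets the MT2A difference from the control shRNA was −0.56 (adjusted p 0.077). COX7B lost its call against the control shRNA without replicate 1 of the knockdown (adjusted p 0.088).

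**Figure D2:**
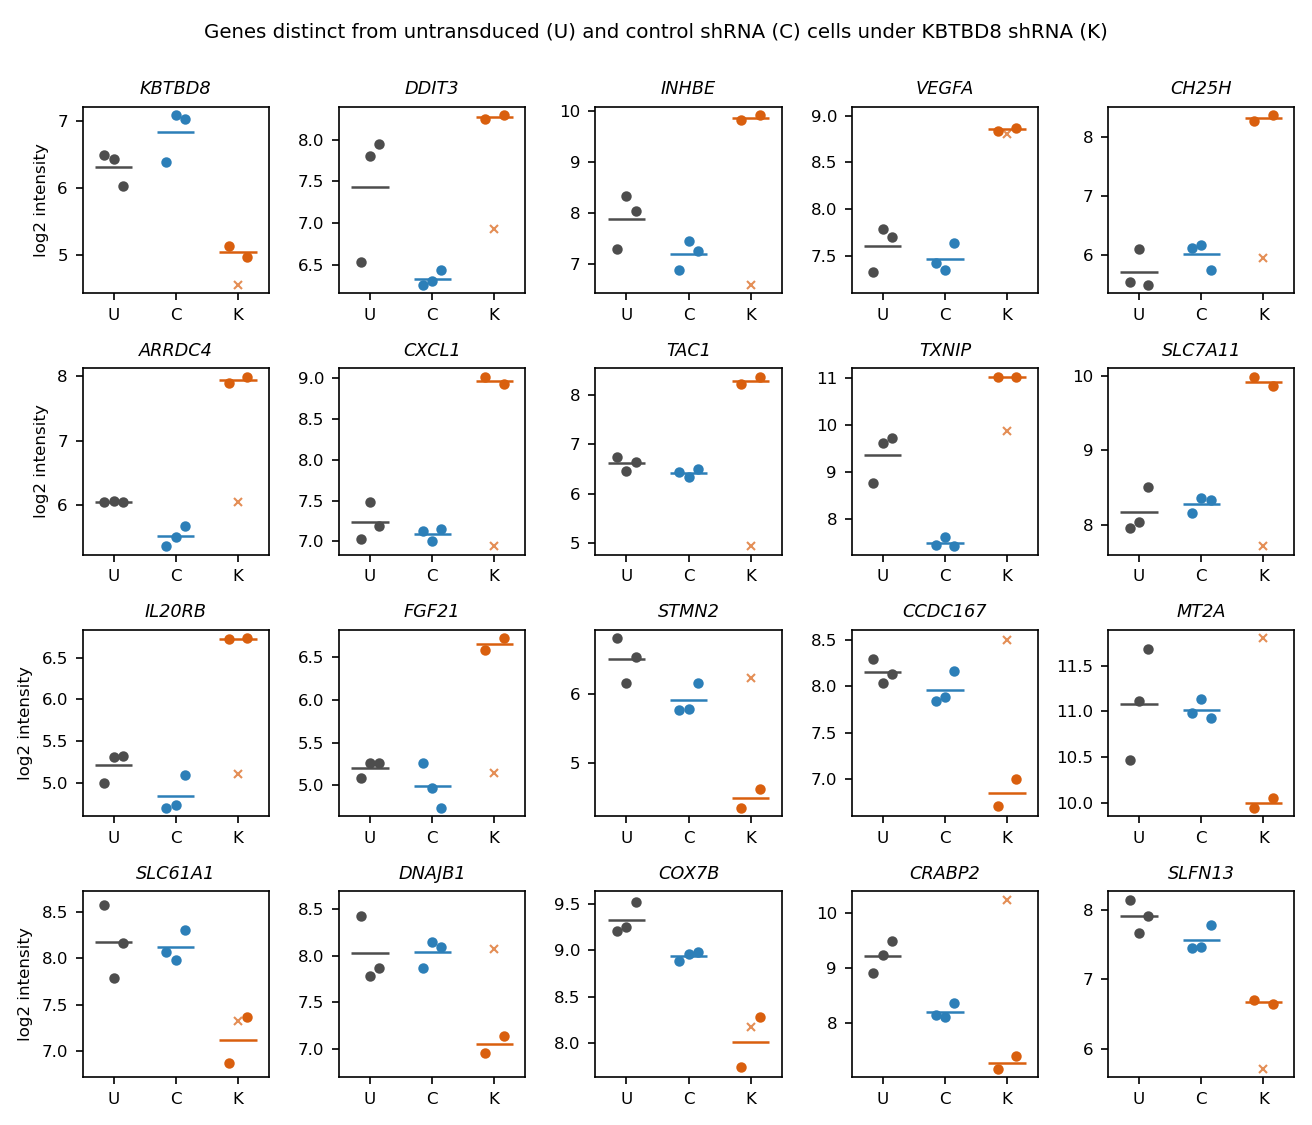
Log2 intensity of each pluripotent array for 20 genes: the 4 markers, then 8 of the largest distinct increases and 8 of the largest distinct decreases; points are arrays of untransduced cells (U, 3), control shRNA (C, 3) and KBTBD8 shRNA (K, 2), lines are group means, and the cross is the left-out replicate 2. The K points lie outside both references in every panel, by the least for DDIT3, where U replicate 1 sits near the control shRNA.

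Most genes on a list of the ATF4 response were higher under knockdown. On this list of ATF4 targets and partners, 33 genes were tested; 21 rose and 3 fell against untransduced cells, with 9 past neither side, and the median difference was 0.58, against 0.05 over all genes, of which 17.2% rose. The share of all genes that fell against untransduced cells was 11.1%. Against the control shRNA 26 rose and none fell (median 0.85), where 8.43% and 5.58% of all genes did. Of the 33, 20 were distinct from both references and higher, where 5.12% of all genes were. The markers DDIT3, INHBE and VEGFA are on this list and were part of how the comparison was set up. With replicate 3 of the knockdown left out, 15 rose against untransduced cells and 13 were distinct; with both arrays numbered 2 kept, 2 rose against untransduced cells and 6 against the control shRNA.

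TRIB3, a pseudokinase that restrains ATF4, read 6.78, 7.19 and 6.96, then 6.64, 6.68 and 6.19, then 8.03 and 8.41, and rose by 1.24 ± 0.18 (adjusted p 1.8e-04). CHAC1, which degrades glutathione, read 7.64, 8.74 and 8.59, then 7.57, 7.57 and 7.46, then 9.43 and 9.19, and rose by 0.99 (adjusted p 0.0044). The secreted stanniocalcin STC2 (1.23), the lipoprotein receptor VLDLR (0.96), the factors ATF5 (0.88) and CEBPG (0.65), the stress regulator NUPR1 (0.87), PPP1R15A (0.79), which recruits the phosphatase that ends the response, and asparagine synthetase ASNS (0.58) rose against untransduced cells and against the control shRNA. NUPR1 lost both calls without replicate 3 of the knockdown (adjusted p 0.19 and 0.22), against untransduced cells also without their replicate 1 (0.052), and against the control shRNA also without its replicate 2 or 3 (0.059 and 0.064). CHAC1 lost its call against untransduced cells without replicate 1 of the knockdown (adjusted p 0.051). FGF19 rose against untransduced cells (1.2) and not against the control shRNA (0.26, adjusted p 0.38). ATF4 mRNA itself fell by 0.56 (adjusted p 2.0e-04).

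Some ATF4 targets were only higher than the control shRNA. DDIT4, an inhibitor of mTORC1, read 7.85, 8.73 and 8.62 untransduced, 6.71, 6.72 and 6.84 with the control shRNA and 8.62 and 8.29 under knockdown. It differed by 1.70 from the control shRNA (adjusted p 3.0e-05) and by 0.06 from untransduced cells, with a 95% interval of −0.33 to 0.45. CTH, an enzyme of cysteine synthesis (0.16 and 1.03), ATF3 (0.08 and 0.88) and the hormone GDF15 (0.06 and 0.54) showed the same pattern; the GDF15 call was lost without replicate 1 or 3 of the knockdown (adjusted p 0.18 and 0.10) or replicate 2 or 3 of the control shRNA (0.078 and 0.11). For these genes the control shRNA lay apart and the knockdown lay at the untransduced level.

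Carriers, charging enzymes and folate enzymes for amino acids had more increases than decreases. Over all genes 17.2% rose and 11.1% fell against untransduced cells, and 5.12% were distinct and higher. Of 14 amino acid transporters, 8 rose and none fell against untransduced cells (median 0.45), and 6 were distinct: SLC7A11, SLC43A1 (1.05), SLC1A4 (0.75), SLC6A9 (0.70), SLC7A1 (0.64) and SLC3A2 (0.37). That count was 3 without replicate 3 of the knockdown, where SLC43A1, SLC7A1 and SLC3A2 lost their calls against the control shRNA (adjusted p 0.079, 0.12 and 0.13). SLC3A2 was also not called against untransduced cells there (0.058), nor against the control shRNA without replicate 1 of the knockdown (0.091) or of the control shRNA (0.064). SLC7A5, the large neutral amino acid transporter, rose against untransduced cells (0.70) and differed by 0.19 from the control shRNA (adjusted p 0.32). Of 19 aminoacyl-tRNA synthetases, which load amino acids onto tRNA, 10 rose and 1 fell (median 0.31), with 8 distinct and higher, led by CARS1 (0.79), AARS1 (0.77), GARS1 (0.73) and WARS1 (0.72). FARSB fell against both references (−0.32 and −0.50), and its call against untransduced cells was lost without replicate 1 or 3 of the knockdown (adjusted p 0.23 and 0.07) or of the untransduced cells (0.10 and 0.064). Its call against the control shRNA was lost without replicate 1 of the knockdown (0.07). The synthetase count of 8 was 5 without either knockdown array. Of 14 enzymes of serine, glycine and one-carbon metabolism, 8 rose and 1 fell (median 0.29) and 6 were distinct, among them SHMT2 (0.53) and MTHFD2 (0.50). That list shares 5 genes with the ATF4 list, and left with 1 knockdown array it gave as few as 4 increases, without replicate 3.

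**Figure D3:**
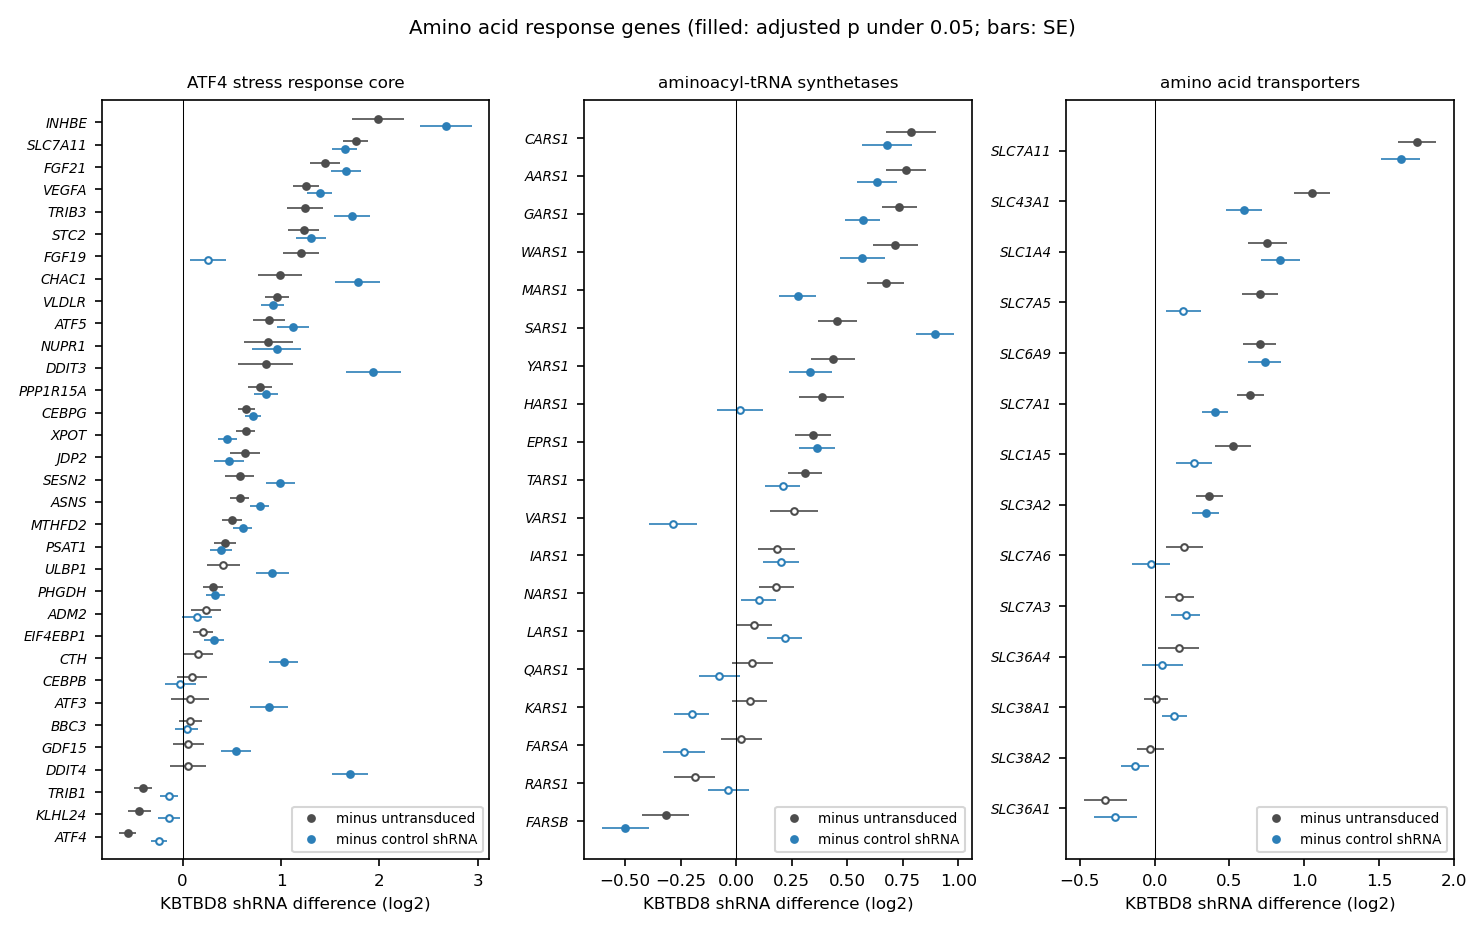
Log2 difference of KBTBD8 shRNA from untransduced cells (grey) and from control shRNA (blue) for every tested member of 3 lists; bars are standard errors and filled points passed an adjusted p of 0.05. INHBE and SLC7A11 lead, DDIT4, CTH and ATF3 show a blue point far to the right of a grey one near 0, and ATF4 itself is lowest.

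Promoter sequence is shown for a few of these genes because ATF4 and its partners bind a composite element. RefSeq promoter windows (GRCh38.p14) were searched over the 250 bases before the gene start for the core letters TGATGNAA on both strands. A match occurred in 3.14% of all 35116 windows and in 2.40% of the tested genes with a window. Of the 26 ATF4 list genes with a window, 6 held it: ASNS, ATF3, CEBPG, CHAC1, FGF21 and JDP2. Of the 16 synthetases with a window, AARS1, GARS1 and IARS1 held it. A match describes the letters in the window and is not evidence of binding. In the sequences below capitals mark the match, and all are written 5′ to 3′ on the strand of the gene.
CHAC1, chr15:40953221-40953314, plus strand: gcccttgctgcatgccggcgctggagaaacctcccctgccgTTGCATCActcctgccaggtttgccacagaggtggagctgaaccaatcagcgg
FGF21, chr19:48755425-48755522, plus strand: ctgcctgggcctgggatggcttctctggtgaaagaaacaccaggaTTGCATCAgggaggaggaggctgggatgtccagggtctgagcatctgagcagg
ASNS, chr7:97872424-97872521, minus strand: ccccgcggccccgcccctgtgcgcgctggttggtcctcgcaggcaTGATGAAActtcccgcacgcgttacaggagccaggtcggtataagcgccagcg
AARS1, chr16:70289641-70289738, minus strand: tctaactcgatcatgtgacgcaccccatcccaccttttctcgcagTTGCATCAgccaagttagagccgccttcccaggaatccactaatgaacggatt
ATF3, chr1:212565171-212565268, plus strand: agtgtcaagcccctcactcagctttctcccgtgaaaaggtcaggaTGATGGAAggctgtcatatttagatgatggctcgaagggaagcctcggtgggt
CHAC1, FGF21, ASNS and AARS1 were distinct from both references, whereas ATF3, with the same core, was higher only than the control shRNA.

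TXNIP and ARRDC4 are targets of the glucose-sensing factor MondoA. MondoA with its partner MLX binds paired E-box units and reports sugar phosphates. Of 12 genes on that list 5 rose and none fell (median 0.23), and 3 were distinct: ARRDC4, TXNIP and KLF10 (1.07 and 1.11). The other 7, among them ARRDC1, ARRDC2, ARRDC3, PFKFB3 and HK2, did not pass against untransduced cells. Of all genes 17.2% rose and 11.1% fell there, and 5.12% were distinct and higher. The 5 became 3 without replicate 3 of the knockdown. MLXIP, which encodes MondoA, rose against untransduced cells (0.36) and differed by −0.11 from the control shRNA (adjusted p 0.55). MLX rose against untransduced cells (0.40) and differed by 0.12 from the control shRNA (adjusted p 0.48), and its call was lost without replicate 1 or 3 of the knockdown (0.052 and 0.067). In the TXNIP promoter, the capitals below mark CACGNG, 5 bases and a second CACGNG, a spacing that, with the second unit in either orientation, occurred in 0.05% of all windows and in 0.14% of those of tested genes.
TXNIP, chr1:145996606-145996712, minus strand: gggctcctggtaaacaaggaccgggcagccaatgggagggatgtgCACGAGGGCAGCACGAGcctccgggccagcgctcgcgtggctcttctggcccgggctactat
Of 15 targets of NRF2, the factor of the oxidative stress response, 6 rose and 1 fell, and 3 rose without replicate 3 of the knockdown. SLC7A11 is on that list too, and ME1 (0.72 and 0.35) and SRXN1 (0.60 and 0.52) were the others distinct from both references; without replicate 3 of the knockdown the SRXN1 calls (adjusted p 0.065 and 0.21) and that of ME1 against the control shRNA (0.088) were lost, the last also without replicate 1 of the knockdown (0.18) and replicate 1 or 2 of the control shRNA (0.10 and 0.052).

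Of 14 cytosolic heat shock proteins tested, 7 fell and 1 rose against untransduced cells (median −0.34), where 11.1% and 17.2% of all genes did. Against the control shRNA 6 fell and none rose, where 5.58% and 8.43% of all genes did. Distinct and lower were 5, where 2.47% of all genes were: DNAJA1, DNAJB1, HSPA8, HSPA1L and HSP90AA1. HSPA8, the constitutive HSP70, read 12.08, 11.80 and 11.75, then 12.34, 12.27 and 12.24, then 11.11 and 11.08. It fell by 0.78 ± 0.09 (adjusted p 3.2e-05) and by 1.19. DNAJB1, the HSP40 partner of HSP70, read 8.43, 7.78 and 7.87, then 7.87, 8.15 and 8.09, then 6.96 and 7.14. DNAJA1, another HSP40, read 10.02, 9.74 and 9.49, then 9.49, 9.44 and 9.53, then 8.58 and 8.74, and fell by 1.08 ± 0.13. HSP90AA1, the inducible cytosolic HSP90, fell by 0.51, whereas its paralogue HSP90AB1 differed by 0.06 (adjusted p 0.60). The distinct count was 3 without either knockdown array, and also 3 without replicate 1 or 2 of the control shRNA. HSP90AA1 and HSPA1L were the members at the edge: without replicate 1 or 3 of the knockdown their adjusted p against the control shRNA was 0.16 and 0.21 for HSP90AA1 and 0.15 and 0.12 for HSPA1L. HSPA8, DNAJB1 and DNAJA1 kept both calls whichever array was left out.

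Promoter sequence is shown for a pair of these genes because heat shock factor binds inverted repeats of GAA. The letters GAANNTTC, which read the same on both strands, occurred in 5.78% of all windows, in 9 of the 14 heat shock genes tested and in all 5 of the distinct ones. DNAJB1 and HSPA8 held 2 matches each.
DNAJB1, chr19:14518398-14518519, minus strand: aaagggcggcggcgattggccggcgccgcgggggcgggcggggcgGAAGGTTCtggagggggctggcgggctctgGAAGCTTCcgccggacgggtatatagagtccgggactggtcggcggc
DNAJA1, chr9:33025030-33025127, plus strand: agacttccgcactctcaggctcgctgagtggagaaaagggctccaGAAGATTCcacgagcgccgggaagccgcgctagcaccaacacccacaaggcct
These windows were searched with the change in expression already known.

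Chaperones of the endoplasmic reticulum did not rise as a group. Of 26 tested, 2 rose and 4 fell against untransduced cells (median −0.09), where 17.2% of all genes rose and 11.1% fell. Against the control shRNA 1 rose and 6 fell, where 8.43% and 5.58% of all genes did. Without replicate 3 of the knockdown 1 fell against untransduced cells and 3 against the control shRNA. HSPA5, the chaperone also called BiP, read 11.88, 11.46 and 11.32, then 11.79, 11.79 and 11.88, then 11.14 and 11.03, and fell by 0.47 ± 0.13 (adjusted p 0.013) and by 0.74. Its call against untransduced cells was lost without replicate 3 of the knockdown (adjusted p 0.11). SDF2L1 (−0.71 and −1.01) and the secreted factor MANF (−0.29 and −0.47) also fell against both, though MANF lost its call against untransduced cells without replicate 1 or 3 of the knockdown (adjusted p 0.10 and 0.22) or of the untransduced cells (0.15 and 0.078), and its call against the control shRNA without replicate 3 of the knockdown (0.083). ATF6, a sensor of unfolded proteins, rose against both (0.39 and 0.42), and lost its call against untransduced cells without replicate 1 or 3 of the knockdown (adjusted p 0.13 and 0.074) or replicate 2 or 3 of the untransduced cells (0.077 and 0.061). Its call against the control shRNA was also lost without replicate 1 or 3 of the knockdown (0.15 and 0.10). XBP1 differed by −0.07 (adjusted p 0.60).

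Sterol genes included decreases against both references. Of 19 genes of the pathway and its regulators, 8 fell, none rose and 11 did not pass against untransduced cells (median −0.16, and −0.09 after quantile normalization), where 11.1% of all genes fell. Of the same 19, 11 fell and 1 rose against the control shRNA (median −0.38), where 5.58% and 8.43% of all genes did. Against both, 5 fell, where 2.47% of all genes did. HMGCS1, an early enzyme of the pathway, read 11, 10.98 and 10.94, then 11.02, 11.03 and 10.96, then 10.28 and 10.17. It fell by 0.75 ± 0.08 (adjusted p 1.9e-05) and by 0.78. IDI1 (−0.71 and −0.71), MSMO1 (−0.63 and −0.87), NSDHL (−0.53 and −0.82) and the SREBP regulator INSIG1 (−0.54 and −1.05) were the others. SC5D (−0.95) and STARD4 (−0.70) fell only against untransduced cells, while SQLE (−0.15 and −0.77) and DHCR7 (−0.28 and −0.77) fell only against the control shRNA, DHCR7 not without replicate 3 of the knockdown (adjusted p 0.056). The distinct count was 5 or 6 whichever array was left out. Among 10 genes of fatty acid synthesis none was distinct from both; FASN rose against untransduced cells (0.29) and fell against the control shRNA (−0.34). Both FASN calls were lost without replicate 1 or 3 of the knockdown (adjusted p 0.075 and 0.20 against untransduced cells, 0.17 and 0.097 against the control shRNA), and also without replicate 2 or 3 of the respective reference.

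**Figure D4:**
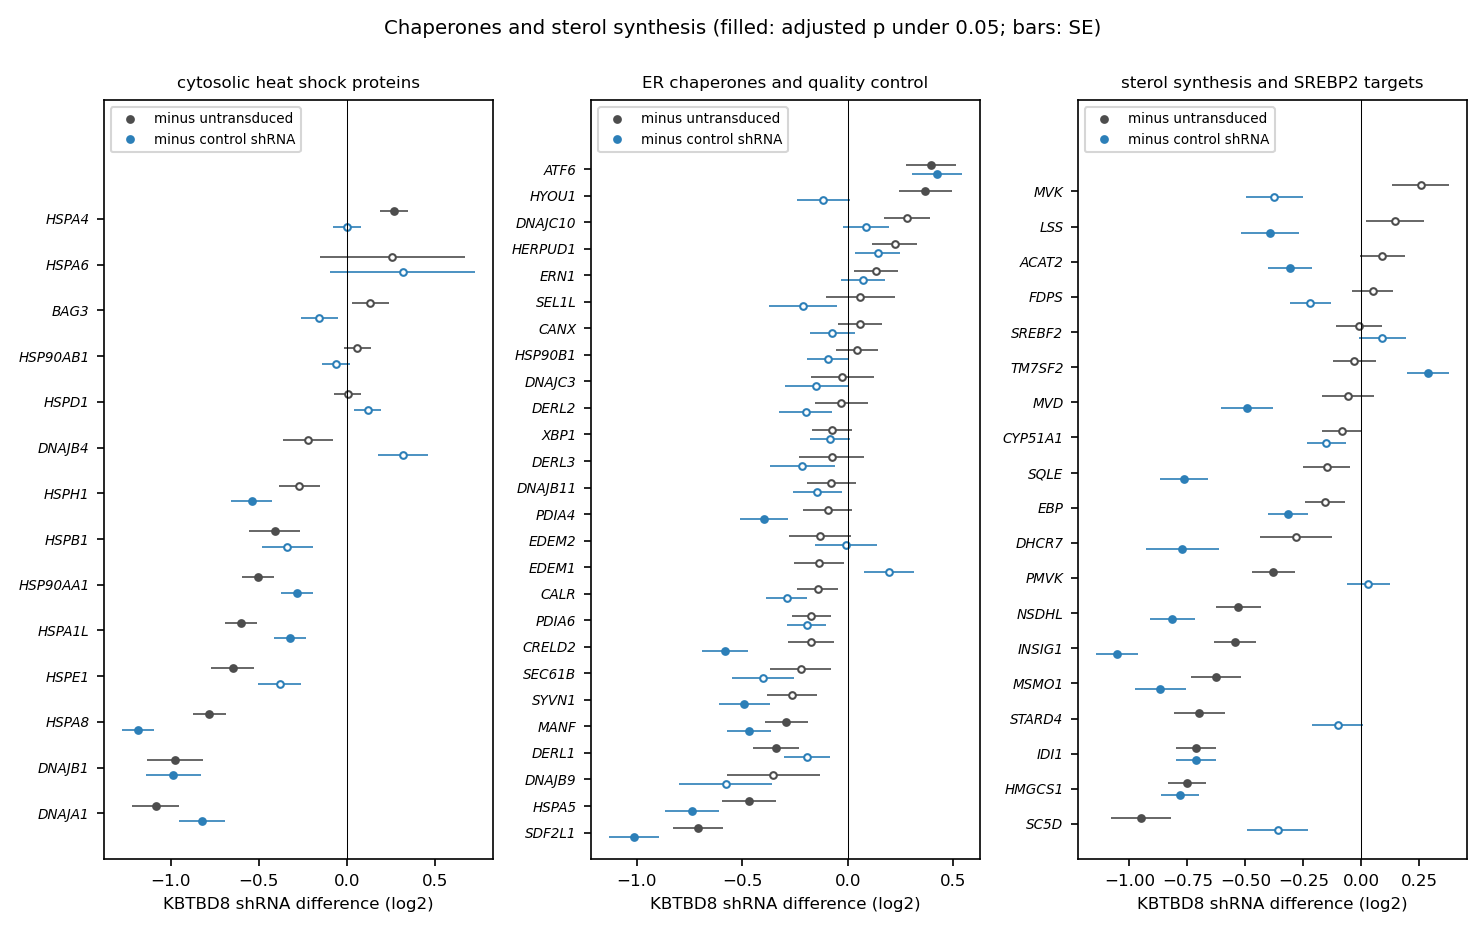
Log2 difference of KBTBD8 shRNA from untransduced cells (grey) and from control shRNA (blue) for every tested member of 3 lists; bars are standard errors and filled points passed an adjusted p of 0.05. DNAJA1, DNAJB1 and HSPA8 anchor the heat shock panel, 20 of 26 reticulum chaperones have open grey points, and HMGCS1 and IDI1 have nearly equal grey and blue values.

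Several of the largest decreases against untransduced cells were also found with the control shRNA. H2BC12, a histone H2B gene, read 10.24, 10.77 and 10.67 untransduced, 7.15, 7.22 and 7.38 with the control shRNA and 8.10 and 7.86 under knockdown, so that it fell by 2.58 against untransduced cells and rose by 0.73 against the control shRNA, the latter not called without replicate 1 of the knockdown (adjusted p 0.12). FEZF1, a forebrain factor, read 8.09, 8.09 and 7.86, then 6.26, 5.60 and 6.22, then 6.14 and 6.12. It fell by 1.89 ± 0.17 against untransduced cells and differed by 0.10 from the control shRNA, with a 95% interval of −0.26 to 0.47. OTX2, a regulator of pluripotency exit and of the forebrain, read 9.77, 9.67 and 9.45, then 8.39, 8.35 and 8.49, then 7.81 and 7.82. It fell by 1.81 against untransduced cells and by 0.59 against the control shRNA, and the control shRNA differed by −1.22 from untransduced cells.

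USP3, a deubiquitinase of histones (−1.74 and −0.66), TMEM88 (−1.62 and −0.48), SLITRK1 (−1.51 and −0.55) and CIAO2A, an iron-sulfur assembly factor (−1.33 and −0.83), were lower than both references. The calls of TMEM88 and SLITRK1 against the control shRNA were lost without replicate 1 of the knockdown (adjusted p 0.34 and 0.12), that of SLITRK1 also without replicate 3 (0.08), and both without replicate 1 of the control shRNA (0.064 and 0.059), and that of TMEM88 without its replicate 3 (0.07). SEMA6D (−1.68), the immediate early gene IER3 (−1.41) and the morphogen FGF8 (−1.36) were lower than untransduced cells and not called against the control shRNA. Over all genes 11.1% fell and 17.2% rose against untransduced cells, and 2.47% were distinct and lower. Of 22 neural plate and forebrain genes, 7 fell and 2 rose against untransduced cells, and 2 fell against both, OTX2 and PRTG (−1.11 and −0.84). The 7 became 4 without replicate 3 of the knockdown, and PRTG was not called against the control shRNA without replicate 1 of the knockdown (adjusted p 0.057). The summed linear intensity of that list ran from 2993 to 3324 on untransduced arrays, from 2071 to 2149 on control shRNA arrays and from 1935 to 2085 on knockdown arrays. Bulk arrays cannot tell fewer cells of a type from less RNA per cell.

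Increases against untransduced cells that the control shRNA shared included small nucleolar RNAs, actin and annexin. SNORD13P1 read 6.82, 4.21 and 4.23 untransduced, 7.14, 7.56 and 6.88 with the control shRNA and 6.90 and 7.33 under knockdown; its difference was 2.02, and the call, not the difference, was lost without replicate 3 of either the untransduced cells (adjusted p 0.053) or the knockdown (0.10). Replicate 1 of the untransduced cells lay near the transduced arrays there and for SNORD59B and SNORD82. Chosen after its values were seen, the family of 121 tested small nucleolar RNA genes had 33 higher and 1 lower against untransduced cells, and 1 higher and 9 lower against the control shRNA. Over all genes 17.2% were higher and 11.1% lower against untransduced cells, and 8.43% higher and 5.58% lower against the control shRNA. After quantile normalization the family had 24 higher and 5 lower against untransduced cells. Its median read 6.69, 6.41 and 6.24 on untransduced arrays and 6.66 and 6.85 on knockdown arrays, so these 2 groups overlapped. ACTA1, a muscle actin, read 7.48, 7.19 and 7.03, then 8.84, 8.77 and 9.05, then 8.68 and 8.75, and rose by 1.48 ± 0.12. ANXA1 (1.35), GPNMB (1.28) and the efflux pump ABCG2 (1.21) rose likewise, each within 0.30 of the control shRNA. Decreases of the same kind were TRIM22 (−1.29), INPP5D (−1.26), OBI1 (−1.23), CD99 (−1.23), TMEM64 (−1.14) and SORBS2 (−1.13).

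A second group was distinct only from the control shRNA. TTR, a transport protein made by yolk sac and liver, read 4.91, 5.26 and 5.03 untransduced, 6.63, 6.27 and 6.97 with the control shRNA and 5.31 and 5.23 under knockdown. It was 1.35 lower than the control shRNA and 0.20 from untransduced cells, with a 95% interval of −0.15 to 0.55. The cystatin CST2 (−1.18), VAT1L (−1.04), SNORD34 (−1.01), the hyaluronan synthase HAS2 (−0.97), PTX3 (−0.97), PCDHB5 (−0.92) and CEMIP2 (−0.81) followed. On the higher side, beside DDIT4, CTH and ATF3, were PHLDA1 (1.04), ATP10B (0.99), ZNF763 (0.98), ZNF876P (0.96) and C2orf15 (0.89). Without replicate 3 of the knockdown the calls of ATF3 (adjusted p 0.09) and SNORD34 (0.086) were lost, and without replicate 1 that of PTX3 (0.079).

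Endoderm markers are given beside these genes. Of 18 tested, 11 were higher with the control shRNA than in untransduced cells, 6 rose under knockdown against untransduced cells, and 6 fell under knockdown against the control shRNA, 3 without replicate 3 of the knockdown. Over all genes, 17% were higher with the control shRNA, 17.2% rose under knockdown against untransduced cells and 5.58% fell against the control shRNA. The summed linear intensity of the endoderm list ran from 803 to 857 on untransduced arrays. It ran from 1203 to 1249 on control shRNA arrays and from 952 to 1005 on knockdown arrays. AFP and APOA2 lay between the references (0.93 and −0.75; 0.49 and −1.21), with the AFP call against the control shRNA lost without replicate 1 or 3 of the knockdown (adjusted p 0.13 and 0.18) or replicate 2 or 3 of the control shRNA (0.056 and 0.12). The APOA2 call against untransduced cells was lost without replicate 3 of the knockdown (0.39) or replicate 1 of the untransduced cells (0.083). SOX17, FOXA2, GATA4 and GATA6 lay at or below the 50.9 percentile on all 8 arrays. The part of these markers in the differences from the control shRNA was not tested. CST1, a cystatin, was the extreme case: 6.02, 5.53 and 5.36 untransduced, 9.07, 9.58 and 9.28 with the control shRNA, 5.98 and 6.81 under knockdown. Its difference of 0.76 from untransduced cells lost its call without replicate 3 of the knockdown (adjusted p 0.42) and without replicate 2 or 3 of the untransduced cells (0.078 and 0.11).

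Of 56 genes of ribosome biogenesis and RNA polymerase I, the process in which KBTBD8 targets act, 11 rose and 5 fell against untransduced cells, a share near the 28.3% over all genes; 4 rose without replicate 3 of the knockdown. Against the control shRNA 1 rose and 10 fell, and 2 fell without replicate 1 of the knockdown; none was distinct and higher and 1 was distinct and lower. Over all genes 8.43% rose and 5.58% fell against the control shRNA, and 2.47% were distinct and lower. Whether the list differed between the references was not tested. Of the 56 genes, 28 were higher with the control shRNA than in untransduced cells, where 17% of all genes were. RRN3, an initiation factor of RNA polymerase I, rose by 0.68 against untransduced cells and differed by 0.26 from the control shRNA (adjusted p 0.13). MYBBP1A differed by 0.46 from untransduced cells and by −0.44 from the control shRNA; both passed, but without replicate 3 of the knockdown neither did (adjusted p 0.17 and 0.073). Its call against untransduced cells was also lost without their replicate 3 (0.065), and that against the control shRNA without replicate 1 of the knockdown (0.25) or any one control array (0.052 to 0.10). Of 56 cytosolic ribosomal proteins 19 fell and 2 rose against untransduced cells, led by RPL28 (−0.87), where 11.1% and 17.2% of all genes did. Against the control shRNA 3 fell, a share near the 5.58% over all genes, and none rose. Without replicate 3 of the knockdown 11 fell against untransduced cells, and without replicate 1 none fell against the control shRNA.

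Of 42 replication-dependent histone genes 13 rose and 5 fell against untransduced cells, 18 rose and none fell against the control shRNA, and 9 were distinct and higher, H3C12 (0.76 and 0.66) among them. Over all genes 17.2% rose and 11.1% fell against untransduced cells, 8.43% rose against the control shRNA, and 5.12% were distinct and higher. Near-identical histone copies can share probe signal, so single members are uncertain. Without replicate 3 of the knockdown 5 rose against untransduced cells, 7 rose against the control shRNA and 2 were distinct, and H3C12 was not called against the control shRNA (adjusted p 0.056). The 9 distinct genes became 4 without replicate 1 of the knockdown or replicate 3 of the untransduced cells.

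Beside the next lists, 17.2% of all genes rose and 11.1% fell against untransduced cells, and 2.47% were distinct and lower. Of 41 genes of DNA replication and nucleotide synthesis 12 rose and 7 fell against untransduced cells, and 6 were distinct and lower. The 12 became 3 without replicate 3 of the knockdown, and the 6 became 2 without its replicate 1 and 3 without its replicate 3 or replicate 3 of the control shRNA. The distinct ones included the sliding clamp PCNA (−1.10 and −0.75) and the ribonucleotide reductase subunit RRM2 (−0.75 and −1.32). MCM7 rose against untransduced cells (1.03) and differed by −0.01 from the control shRNA. Of 33 mitosis genes 2 rose and 6 fell, and 3 were distinct and lower, among them CKS2 (−0.59 and −0.34) and CCNB1 (−0.40 and −0.35). None of the 3 stayed distinct without replicate 1 or without replicate 3 of the knockdown, or with the 8 pluripotent arrays fitted alone. Of 27 p53 targets 3 rose and 10 fell against untransduced cells. With the control shRNA 12 were lower than in untransduced cells, where 12.1% of all genes were lower. Without replicate 3 of the knockdown 4 fell and none rose. ZMAT3 fell against both (−1.21 and −0.55), though against the control shRNA not without replicate 1 or 3 of the knockdown (adjusted p 0.067 and 0.20) or replicate 2 or 3 of the control shRNA (0.066 and 0.068), and SESN2, which is also an ATF4 target, rose against both (0.58 and 0.99), the first call lost without replicate 3 of the knockdown (adjusted p 0.14).

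The remaining lists are given by their counts. Beside them, 17.2% of all genes rose and 11.1% fell against untransduced cells, and 7.59% were distinct. Of 26 hypoxia and glycolysis genes 6 rose and 5 fell; beside VEGFA, lactate dehydrogenase LDHA (−1.07 and −0.73) and HILPDA (−0.63 and −0.53) were distinct and lower, against the direction of VEGFA; HILPDA was not called against the control shRNA without replicate 1 or 3 of the knockdown (adjusted p 0.088 and 0.053). Of 21 genes of the NODAL, activin and inhibin pathway 4 rose and 1 fell, and only INHBE was distinct. Of 9 VEGF family members and receptors 3 rose, and only VEGFA was distinct; its receptor KDR rose by 1.0 against untransduced cells and differed by −0.08 from the control shRNA. Of 21 mTOR regulators 5 rose and 6 fell, and SESN2 and the lysosomal amino acid sensor SLC38A9 (0.72 and 0.54) were among 3 distinct and higher. That count was 1 without replicate 1 of the knockdown and 0 without replicate 3; SLC38A9 was not called against the control shRNA without either (adjusted p 0.17 and 0.11). Of 7 type 2 cystatins 2 rose and 1 fell.

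Markers of other cell types were counted in the same way, beside the same 17.2%, 11.1% and 7.59% of all genes. Of 19 neural crest genes 6 rose and 1 fell against untransduced cells. Against the control shRNA 2 rose and 3 fell (median −0.13), where 8.43% and 5.58% of all genes did. TFAP2C (1.31 and 1.12) and CDH11 (0.63 and 0.50) were distinct and higher, CDH11 not without replicate 3 of the knockdown. Another 1 was distinct and lower, and none was without replicate 2 or 3 of the control shRNA. SOX10 lay at the 47.6 to 55.1 percentile on the 8 arrays. SOX10 itself was higher under knockdown than in untransduced cells (0.38, limma, adjusted p 0.012) and differed by 0.15 from the control shRNA. Of 10 neuron genes 3 rose and 3 fell, of 12 genes of primitive streak and mesoderm 2 rose, and of 9 trophoblast and amnion genes 3 rose. SYT4, a neuronal synaptotagmin, rose against both references (1.61 and 1.07), opposite to STMN2. Of 13 fibroblast and mesenchyme genes 4 rose and 3 fell, with LGALS1 (1.21 and 1.11) and COL6A3 distinct and higher and VIM (−0.90 and −0.84) distinct and lower. Of 13 YAP targets 5 rose (3 without replicate 3 of the knockdown), of 23 immediate early genes 6 rose and 2 fell, with JUN (1.07 and 0.65) and MYC (0.71 and 0.40) distinct, MYC not without replicate 1 or 3 of the knockdown (adjusted p 0.11 and 0.14 against the control shRNA) or replicate 1 of the control shRNA (0.083), and of 24 interferon response genes 5 rose and 4 fell.

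In embryoid bodies KBTBD8 lay below the 40th percentile on every array, so the difference there is between dim values. It read 4.54, 5.06 and 4.07 untransduced and 4.86 and 4.66 with the KBTBD8 shRNA, a difference of 0.20 (limma, adjusted p 0.55). INHBE there read 5.22, 5.05 and 4.77 untransduced and 5.97 and 5.40 with the KBTBD8 shRNA (0.67, adjusted p 0.052), with the untransduced arrays again below the 40th percentile. The left-out embryoid body array with the KBTBD8 shRNA read 9.71 for INHBE, so that difference depends on leaving it out. VEGFA rose by 0.74 (adjusted p 3.4e-04), and the control shRNA arrays (8.88, 8.82 and 8.89) lay near the KBTBD8 shRNA arrays (8.85 and 9.01).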

How the data were processed

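The authors deposited log2 intensities made with GCRMA, per the submitters' processing notes; the version and whether all arrays were normalized together are not given in the sources used here, and the log base was taken from the method and the range of values. Of 33297 probe sets, 19460 carried exactly 1 gene symbol in GEO's platform annotation, 1754 several and 12083 none, and only the first kind was used. The brightest of them stood for each of 18417 genes, under RefSeq names. Testing was limited to the 14209 genes whose value exceeded its array's 40th percentile in 3 or more of the 18 arrays. limma 3.58.1 in R 4.3.3 was fitted to 16 arrays with 6 group means and 10 residual degrees of freedom, without both arrays numbered 2 of the KBTBD8 shRNA. Benjamini-Hochberg adjustment ran over all tested genes within each comparison, and the threshold was 0.05. After ± stands the standard error. The number of arrays limits the precision.

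Members, gene lists (33) and tests were chosen with earlier results of these data known. Genes named are the 4 markers; the 12 largest increases and decreases against untransduced cells without overlap; the 10 largest distinct ones each way, ranked on the smaller difference; the 8 largest each way called against 1 reference and under 0.3 and not called against the other; and up to 5 members of each list. List members named beyond these were chosen after their values were seen, to complete a count or a pattern. The fit was tested on simulated data for the main comparison: 31 of 50 changes of 0.5, 49 of 50 of 1 and 50 of 50 of 1.5 were recovered among 14209 genes, with 9 false calls. The simulation drew independent noise around a single mean per gene and changed few genes. It held no other group difference, batch or array-wide shift, so the 9 false calls do not measure false calls in the real arrays. Promoter sequences are RefSeq's for GRCh38.p14. Alternatives tried were other sets of arrays, filters, probe set means, quantile normalization, an intensity trend, a replicate block and leaving out each array. pandas 2.3.3 and matplotlib 3.10.9 were used in Python 3.11.15.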

Additional observations from a re-analysis of the deposited data

Results flagged for a closer look

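KBTBD8 and INHBE passed a test of the difference between the states in the response to the KBTBD8 shRNA, which was added after the data were seen. The difference from untransduced cells in embryoid bodies minus that in pluripotent cells was 1.48 ± 0.36 for KBTBD8 (limma, adjusted p 0.0085) and −1.31 ± 0.37 for INHBE (adjusted p 0.02). In the same test VEGFA gave −0.51 (adjusted p 0.058) and DDIT3 −0.56 (adjusted p 0.34). Both genes lay below the 40th percentile on every untransduced embryoid body array, and KBTBD8 on all embryoid body arrays, so these values set a pluripotent difference beside one that involves dim signals. With both KBTBD8 shRNA arrays numbered 2 kept, an alternative also chosen after seeing the data, KBTBD8 gave 1.76 (limma, adjusted p 0.0058), INHBE turned to 1.12 (0.64), DDIT3 gave 0.31 (0.78) and VEGFA −0.59 (0.047). The INHBE result therefore rests on leaving those arrays out.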

How the results depend on the processing

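Against untransduced cells the count of 4024 called genes became 2124 with only the groups compared and 2009 with all 18 arrays, and 2032 to 3925 with 1 array left out. Against the control shRNA 1991 became 1111 with the 8 pluripotent arrays, 729 with all 18, and 724 to 1518 with 1 left out. For the control shRNA against untransduced cells 4132 became 2644 with only the groups compared and 1713 with all 18, and 3094 to 3987 with 1 left out. The 1079 distinct genes became 618 with the 8 pluripotent arrays, 299 with all 18 (279 shared), 2766 against the mean of both references, 44 when both differences had to be at least 2-fold, and 399 to 1101 with 1 left out. The 2-fold rule is stricter by construction, and the mean of both references asks for 1 call in place of 2. Fits of only the groups compared left 3 or 4 residual degrees of freedom and that of the 8 pluripotent arrays 5, against 10. The cause of the moves was otherwise not tested. The KBTBD8 difference from untransduced cells ranged from −1.42 to −1.18 with 1 array left out and was called under every alternative run; it was not in the fit filtered at the 60th percentile. Keeping both arrays numbered 2 turned the sign of CRABP2 against the control shRNA (0.064), and against untransduced cells of SLC7A5 (−0.46), ASNS (−0.20), SHMT2 (−0.10), MTHFD2 (−0.14), BNIP3 (0.00), ACLY (−0.025), FASN (−0.051), ZSCAN10 (−0.094), PRTG (0.70) and AJUBA (−0.028). Over 209 results of named genes and 3105 values under alternatives, 225 were no longer called, 112 of them with all 18 arrays. The main fit did not take the replicate numbers as pairing. Deviations of same-numbered arrays correlated at −0.24 and −0.04 for untransduced cells and KBTBD8 shRNA. They correlated at −0.38, −0.15 and −0.08 for untransduced cells and control shRNA, and at 0.38 and 0.36 for the 2 shRNAs. The deviations of 2 knockdown arrays are mirror images, so differently numbered shRNA arrays repeat these values with the sign reversed (−0.38 and −0.36), besides −0.11 and 0.11. The values 0.38 and 0.36 are thus not independent. Differently numbered untransduced and control shRNA arrays also reached 0.33 (replicates 2 and 1) and 0.29 (replicates 1 and 3). A batch shared between same-numbered arrays of the 2 shRNAs was not tested. With a replicate block 3882 genes were called against untransduced cells, 1827 against the control shRNA, and 1005 were distinct.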
